A study of Homo sapiens with 6 samples.

Results

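The epidermal differentiation complex is a cluster of genes on the long arm of human chromosome 1. Its members were taken here as the protein-coding genes of the deposited table that start between 151.99 and 153.65 Mb of chromosome 1 (GRCh38), which gave 64 of the 58735 genes listed and of the 19951 that are protein-coding. They were 18 late cornified envelope (LCE) genes, 16 S100 genes, 11 small proline-rich (SPRR) genes, 7 fused S100 genes, the envelope precursors IVL and LOR, and 10 other genes. Messenger RNA had been sequenced in AZ-521 cells, a line that the labels call a gastric cancer cell of wild-type genotype and that cell banks record as of duodenal origin. In the first group the cells had received platycodon D (PD), a triterpenoid saponin of balloon flower root, at 10 µM for 48 h, and in the other the solvent DMSO for the same time, with 3 samples in each. The question set by the design was which genes changed under PD. Whether the samples of a group came from separate cultures is not said in the labels. The p-values therefore measure just the spread among these samples, and that spread may be technical.

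As background, keratinocytes switch on the genes of this cluster as they leave the basal layer and build the cornified envelope, the cross-linked protein shell that seals the outer skin. Loricrin, involucrin, the SPRR and the LCE proteins are joined into that shell by transglutaminases. The fused S100 proteins, filaggrin among them, bundle keratin or strengthen the envelope, and the single S100 proteins are small calcium-binding proteins, many of which are also made outside the skin. Glandular epithelium of the gut does not cornify.

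Most of the cluster was silent in both groups, and a few members carried nearly all of its reads. Among the members tested, LCE1F rose several-fold in PD, FLG rose slightly, and the S100 genes did not pass in either direction. S100A10, which starts just before the window and rose, is not a member and is described below. Of the 64 members, 34 had 0 reads in all 6 samples, 53.1%, against 16.5% of all protein-coding genes (3294 of 19951) and 9.38% of the 64 protein-coding genes that start within 1 Mb on either side of the window. A count of 0 allows up to 3 reads in a library, which for these 34 genes is 0.0381 to 0.741 FPKM depending on gene length and library, and this limit covers counting error only. Members are short, with a median gene length of 779.5 bases against 4215 bases for all protein-coding genes, so a read count of 0 allows a higher level for them. The silent genes were IVL, which encodes involucrin, 9 of the 11 SPRR genes, 11 of the 18 LCE genes including all of LCE2A to LCE2D and LCE3A to LCE3E, and 6 of the 16 S100 genes. Those 6 were S100A7, S100A7A, S100A7L2, S100A8, S100A9 and S100A12, which include the calprotectin pair of inflamed skin and of neutrophils. The other 7 were C1orf68, AL162596.1, LELP1, PRR9, the sperm mitochondrial gene SMCP, and PGLYRP3 and PGLYRP4, which encode peptidoglycan recognition proteins. In PD 37 members had no read and in DMSO 42, and the number with at least 1 read was 23, 22 and 20 in PD replicates 1 to 3 and 17, 17 and 21 in DMSO replicates 1 to 3. The groups overlap in that number.

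**Figure D1:**
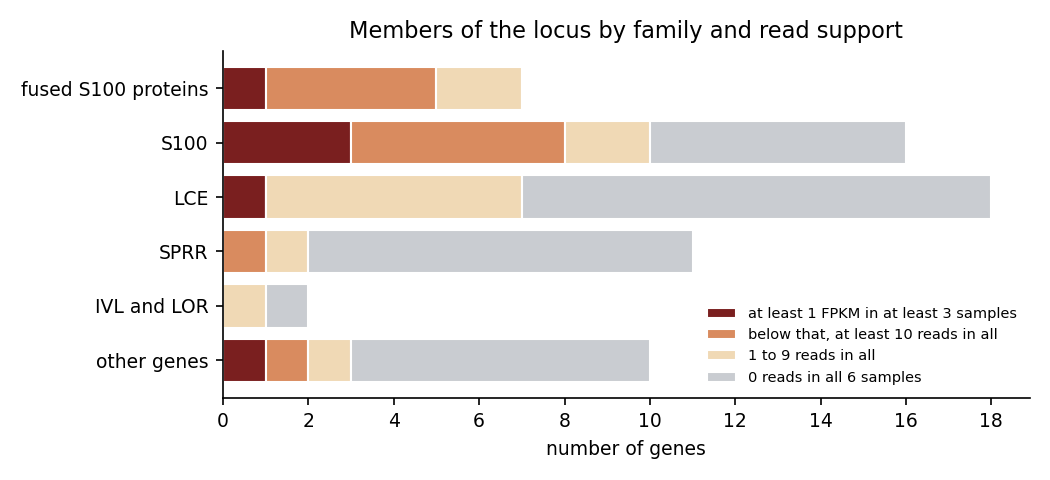
Number of members (horizontal axis) in each family (rows), split by read support over all 6 samples. All 7 fused S100 genes had at least 1 read, while 9 of 11 SPRR and 11 of 18 LCE genes had 0 reads in every sample.

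The members with reads fell into 3 classes. In 6 the level reached 1 FPKM (fragments scaled to gene length and library size) in at least 3 samples, the minimum for the test, which is 9.38% of members against 53.4% of all protein-coding genes and 67.2% of the flanking ones. They were LCE1F, FLG, S100A11, S100A2, S100A13 and CHTOP. A further 11 stayed below that minimum with at least 10 reads in all, and 13 had 1 to 9 reads in all. Reads over the whole cluster numbered 3430, 3490 and 3508 in PD and 3357, 3529 and 3814 in DMSO, and CHTOP and FLG together took 83.8% to 90.2% of them in each sample. CHTOP, which encodes a chromatin-bound protein that works in mRNA export and no envelope component, lies at the far end of the window. Without it the cluster held 1372, 1545 and 1306 reads in PD and 1092, 1135 and 1173 reads in DMSO. Every PD sample then lay above every DMSO sample, with LCE1F, FLG and TCHH supplying most of the gap. In bulk RNA a change in the number of cells that express a gene and a change in RNA per cell cannot be told apart.

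**Figure D2:**
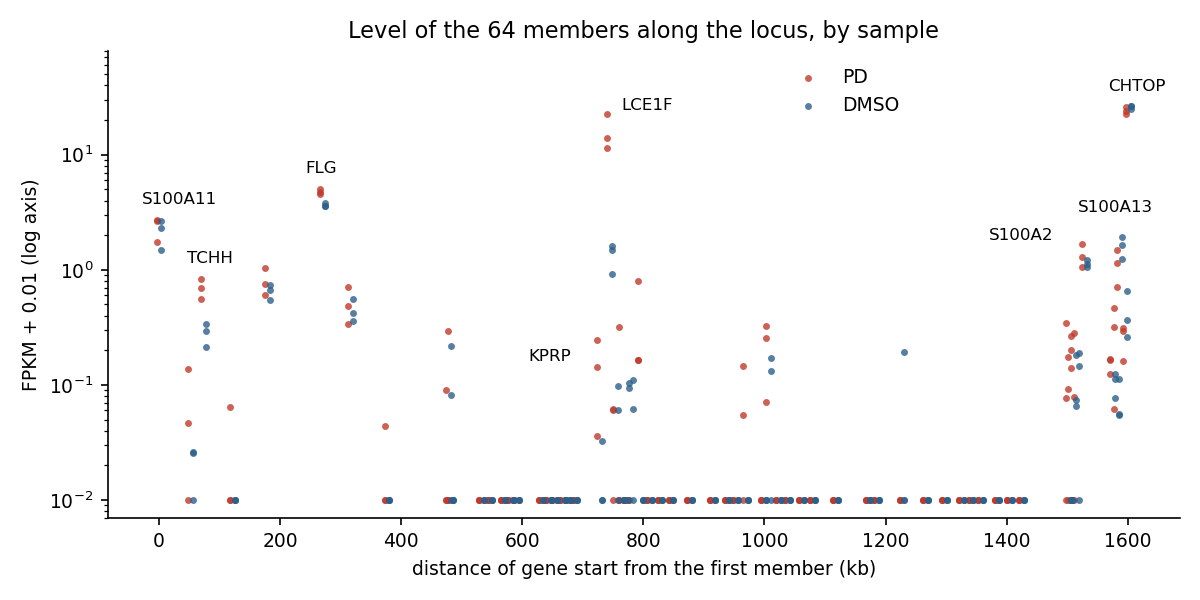
Level of each of the 64 members in each sample (FPKM plus 0.01, log axis) against the distance of the gene's start from that of S100A11, the first member. Red points are PD and blue points DMSO, shifted slightly apart; LCE1F has all PD points above all DMSO points, and the members next to it (KPRP and LCE1E to LCE1A) lie at 0 or below 1 FPKM.

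Reads over genes numbered 15328454 to 15821524 in the PD samples and 14915538 to 16341687 in the DMSO samples. Deviations from the group means correlated at 0.384 across genes for PD replicate 3 and DMSO replicate 1, the highest value between the groups. The lowest was -0.388, for PD replicate 1 and DMSO replicate 1. Deviations within a group cancel out, so these values are linked and do not single out a sample. PD replicate 3 and DMSO replicate 1 were also left out together as an alternative. Markers of the labelled tissue were low. Of 7 genes of gastric epithelium none entered the test, TFF1, TFF2 and GKN1 had 0 reads, and the list summed to 0.729 to 1.66 FPKM in PD and 0.358 to 0.707 FPKM in DMSO, without overlap. The mucin MUC5AC had 23, 22 and 17 reads in PD and 0 in each DMSO sample. ATP4A, the proton pump subunit of parietal cells, had 69, 68 and 29 reads in PD and 7, 25 and 30 reads in DMSO. Of 6 intestinal genes 1 entered the test, CDX2, CDX1 had 0 reads, and the list summed to 1.16 to 1.50 FPKM in PD and 1.14 to 1.63 FPKM in DMSO. Of 7 genes of simple epithelium 1 entered the test, CLDN4, which rose, as did 14.3% of all genes tested. CLDN4 had 3.25, 2.59 and 2.20 FPKM in PD and 0.928, 1.04 and 1.23 FPKM in DMSO, so it met the minimum only with its PD samples. KRT8 went the other way, with 31, 31 and 30 reads in PD and 37, 46 and 52 reads in DMSO. EPCAM and CDH1 overlapped between the groups, and KRT18 and KRT19 had 0 reads. The list, most of it CLDN4, summed to 2.67 to 3.60 FPKM in PD and 1.46 to 1.71 FPKM in DMSO. Of 10 keratinocyte genes 3 entered the test (TP63, DSG3 and KRT10), KRT14 and KRT1 had 0 reads, and the list summed to 24.0 to 28.3 FPKM in PD and 26.1 to 31.9 FPKM in DMSO. TP63, the transcription factor of stratified epithelium, fell to 4.08 ± 0.303 FPKM in PD, against 8.72 ± 0.983 FPKM in DMSO (SD, n = 3; log2 fold change -0.93 ± 0.10 SE, adjusted p = 0.00128 in limma). Of 6 mesenchymal genes 4 entered the test, of which VIM, FN1 and CDH2 fell, against 12.7% of all genes tested. CDH2 also fell by at least 2-fold (log2 fold change -1.03, adjusted p = 0.00162 in limma), as did 0.979% of all genes tested. ZEB1, the other tested gene, did not pass (log2 fold change 0.12, adjusted p = 0.541 in limma), and its groups overlap. The list summed to 120 to 138 FPKM in PD and 167 to 182 FPKM in DMSO. The fall of VIM missed the threshold in 7 of 17 other settings. The 6 myeloid genes, markers of white cells that make S100A8 and S100A9, summed to 0.281 to 0.880 FPKM in PD and 0.113 to 0.202 FPKM in DMSO, without overlap, and LYZ and FCGR3A had 0 reads. CSF1R had 24, 27 and 9 reads in PD and 5, 9 and 3 in DMSO, ITGAM 22, 26 and 11 in PD and 5, 1 and 14 in DMSO, and CD14 9, 6 and 1 in PD and 1, 0 and 1 in DMSO. The part of these marker lists in the changes below was not tested.

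Among the tested members the largest change was in LCE1F (ENSG00000240386, chromosome 1, 152776372 to 152776728, plus strand), which encodes a late cornified envelope protein, a small cysteine- and proline-rich component added late in cornification. Its closest relatives are LCE1A to LCE1E of the same cluster. The table's model of LCE1F is a single exon of 357 bases that is coding sequence from start to stop codon. The first 90 coding bases of LCE1F and its relatives, from the GENCODE 29 transcripts on GRCh38, are shown to let the near-identity of the family be seen. Capitals mark bases that differ from LCE1F at the same position.
LCE1F: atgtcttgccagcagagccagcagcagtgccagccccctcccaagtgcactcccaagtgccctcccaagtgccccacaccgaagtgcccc
LCE1A: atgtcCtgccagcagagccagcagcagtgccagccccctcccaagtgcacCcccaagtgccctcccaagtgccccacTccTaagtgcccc
LCE1B: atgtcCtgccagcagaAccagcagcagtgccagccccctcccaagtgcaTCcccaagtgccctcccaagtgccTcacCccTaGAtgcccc
LCE1C: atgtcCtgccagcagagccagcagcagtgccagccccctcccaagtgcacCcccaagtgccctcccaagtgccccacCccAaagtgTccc
LCE1D: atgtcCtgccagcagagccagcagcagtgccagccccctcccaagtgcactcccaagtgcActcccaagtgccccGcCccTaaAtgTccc
LCE1E: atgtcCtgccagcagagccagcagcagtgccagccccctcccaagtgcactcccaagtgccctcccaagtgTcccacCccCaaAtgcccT

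Over the whole coding sequence LCE1C and LCE1E were 92.2% identical to LCE1F, LCE1B 89.3%, LCE1D 88.0% and LCE1A 87.4%. Of the 308 runs of 50 bases in LCE1F, 16 occur in another GENCODE gene, which is 5.19%, and LCE1E shares 16. LCE1D shares 5, while LCE1A, LCE1B and LCE1C share none. The sources used here do not give how reads that match several genes were counted, and their part in these values was not tested.

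LCE1F reached 11.5, 14.0 and 22.4 FPKM in PD replicates 1 to 3, against 0.912, 1.48 and 1.59 FPKM in DMSO replicates 1 to 3. All PD samples lay above all DMSO samples, and the lowest PD value was far above the highest DMSO value. DMSO replicate 1 was under 1 FPKM, so LCE1F met the minimum for the test only with its PD samples. These levels rested on 63, 77 and 120 reads in PD and 5, 9 and 10 reads in DMSO. The means were 16.0 ± 5.72 FPKM in PD and 1.33 ± 0.362 FPKM in DMSO (SD, n = 3), a ratio of 12.1. On the log2(FPKM + 1) scale, which understates changes of low genes, the fold was 7.11 with an adjusted p of 0.000429 in limma. LCE1F ranked 11 among the rises of the 13579 genes tested and 5170 by mean FPKM. On whole reads, fitted with limma's voom, the log2 fold change was 3.47 ± 0.47 (SE), an 11.1-fold rise, with an adjusted p of 7.06e-05. Without PD replicate 3, the highest sample, it was 2.57 on the log2(FPKM + 1) scale, and without both PD replicate 3 and DMSO replicate 1 it was 2.44 (adjusted p = 0.00109 in limma). The call held in all 17 other settings.

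The rest of the LCE family had too few reads for the test. The other 17 LCE genes together had 3, 1 and 8 reads in PD replicates 1 to 3 and 2, 3 and 7 reads in DMSO replicates 1 to 3, so the groups overlap. LCE1A had 1, 1 and 5 reads in PD and 0 in each DMSO sample, so its groups were separate, on 7 reads in all. LCE1D had 2 reads, both in PD replicate 3. LCE1E, the relative with the most shared sequence, had 1, 0 and 1 reads in PD and 1, 0 and 2 reads in DMSO. LCE1B and LCE1C had 3 and 2 reads, all in DMSO, and LCE5A had 1 read in PD and 4 in DMSO. Of the neighbours of LCE1F along the chromosome, LCE1E starts 9.49 kb past its end, and KPRP ends 14.3 kb before its start.

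KPRP encodes the keratinocyte proline-rich protein, an envelope component. It had 1, 9 and 5 reads in PD, against 0, 0 and 1 reads in DMSO. The lowest PD and the highest DMSO sample thus had 1 read each, and with voom on genes with at least 10 reads the adjusted p was 0.0867. Without PD replicate 1 that value was 0.0335, and it was 0.139 to 0.288 without each of the other 5 samples in turn and 0.252 without both PD replicate 3 and DMSO replicate 1.

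The RefSeq start site of LCE1F on GRCh38.p14 is at position 152775140, 1232 bases before the table's gene begins, so reads from the RefSeq 5′ exon fall outside the 357 bases counted. Promoter windows from RefSeq (250 bases before to 50 after the start site) are printed for LCE1F at chr1:152774890-152775189 (plus strand) and for its low neighbour LCE1E at chr1:152786007-152786306 (plus strand), because most of one gene's reads lay in PD and the other had almost none, while their windows are alike. Capitals mark the longest run of bases shared by both, 24 bases that end 4 bases before the start site.
LCE1F promoter: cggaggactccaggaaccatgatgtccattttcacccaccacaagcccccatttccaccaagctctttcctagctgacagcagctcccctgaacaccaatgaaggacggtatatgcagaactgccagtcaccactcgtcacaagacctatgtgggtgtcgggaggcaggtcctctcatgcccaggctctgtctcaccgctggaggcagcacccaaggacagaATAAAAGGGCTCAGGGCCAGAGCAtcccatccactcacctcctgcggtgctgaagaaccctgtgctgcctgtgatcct
LCE1E promoter: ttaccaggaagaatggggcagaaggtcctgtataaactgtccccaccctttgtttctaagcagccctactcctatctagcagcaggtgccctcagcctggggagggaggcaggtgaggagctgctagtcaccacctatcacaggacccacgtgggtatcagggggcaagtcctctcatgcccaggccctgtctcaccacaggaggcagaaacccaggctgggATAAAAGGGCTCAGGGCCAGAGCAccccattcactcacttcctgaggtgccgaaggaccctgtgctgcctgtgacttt

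The windows of LCE1F and LCE1E were 70.1% identical, those of LCE1F and LCE1D 72.1% and those of LCE1F and LCE1C 75.0%, against 47.3% for LCE1A. Per length, LCE1E reached at most 0.0514 FPKM in a PD sample and LCE1D at most 0.310 FPKM, and LCE1C was at 0 in PD, against at least 11.5 FPKM for LCE1F.

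The fused S100 genes, whose proteins carry an S100 domain ahead of long repeats, held most of the remaining reads. FLG (ENSG00000143631, chromosome 1, 152302175 to 152325203, minus strand) encodes profilaggrin, the precursor of the keratin-bundling protein filaggrin. It had 4.71, 5.00 and 4.53 FPKM in PD replicates 1 to 3, against 3.83, 3.58 and 3.56 FPKM in DMSO replicates 1 to 3. All PD samples were higher than all DMSO samples, and the groups were 4.75 ± 0.239 FPKM in PD and 3.66 ± 0.153 FPKM in DMSO (SD, n = 3). FLG rose by 1.23-fold (log2 fold change 0.30 ± 0.09 SE, adjusted p = 0.0379 in limma), on 922, 980 and 866 reads in PD and 750, 778 and 800 reads in DMSO. FLG missed the threshold in 8 of 16 other settings, with adjusted p-values in limma of 0.123 with scaling to equal totals. It also missed without PD replicate 1 (0.0898), PD replicate 2 (0.131), DMSO replicate 2 (0.123) or DMSO replicate 3 (0.124). Without both PD replicate 3 and DMSO replicate 1 the value was 0.0293. All of FLG lies within the antisense gene FLG-AS1, and the sources used here do not give whether counting used the strand. FLG-AS1 had 366, 431 and 361 reads in PD and 352, 299 and 291 reads in DMSO (log2 fold change 0.31, adjusted p = 0.101 in limma), and its part in the FLG values was not tested.

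TCHH encodes trichohyalin, an envelope and keratin-linking protein of the inner root sheath of hair. It had 73, 88 and 57 reads in PD, against 22, 39 and 35 reads in DMSO, which is 0.681 ± 0.138 FPKM in PD and 0.272 ± 0.0619 FPKM in DMSO (SD, n = 3). All PD samples lay above all DMSO samples. It stayed under the minimum for the test, and in the alternative fit with voom on genes with at least 10 reads it rose by 2.48-fold (log2 fold change 1.31 ± 0.28 SE, adjusted p = 0.00299). Leaving out each sample in turn, its adjusted p in that fit was 0.00128 to 0.0195, whereas on log2(FPKM + 1) with no filter it was 0.0720.

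HRNR, which encodes hornerin, a filaggrin-like envelope protein, had 110, 151 and 86 reads in PD and 80, 120 and 111 reads in DMSO. FLG2, the filaggrin relative filaggrin-2, had 67, 97 and 45 reads in PD and 77, 54 and 66 reads in DMSO. Both overlapped between the groups, and neither passed with voom (adjusted p = 0.426 and 0.707). TCHHL1 had 7, 0 and 2 reads in PD and 0, 1 and 1 reads in DMSO. RPTN (repetin) and CRNN (cornulin) had reads in PD replicate 2 alone, 3 and 1 of them. HRNR, FLG2 and CRNN also overlap FLG-AS1.

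**Figure D3:**
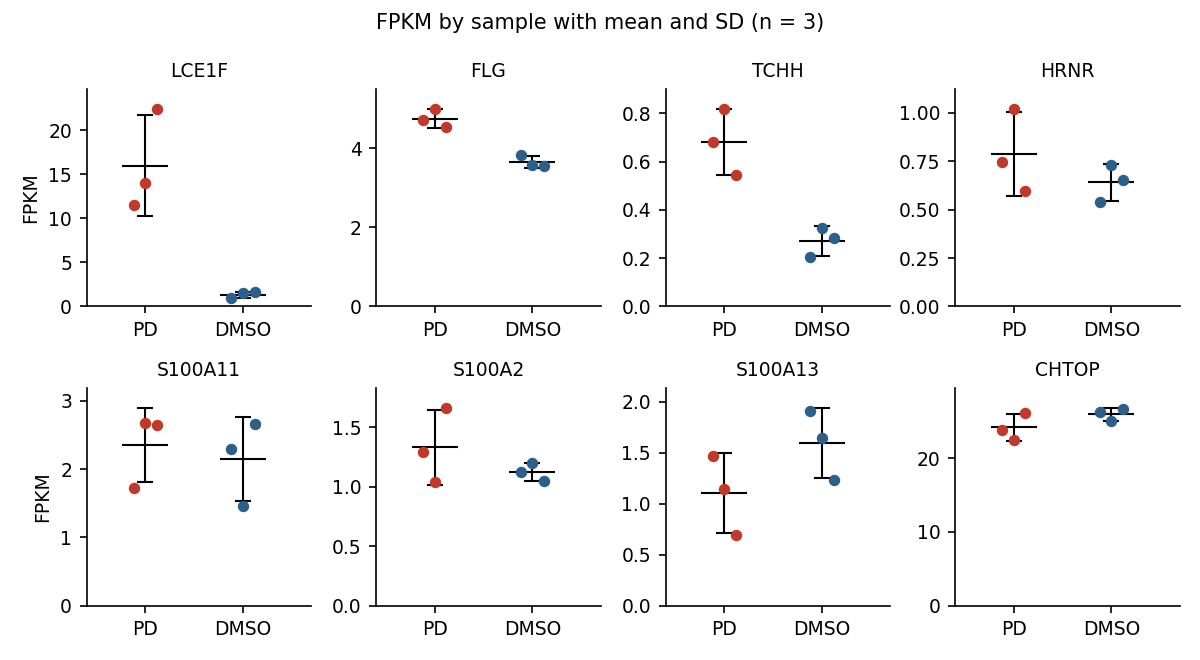
FPKM in each sample (points) with the mean and SD (bars, n = 3) for PD and DMSO, for the 6 tested members and for TCHH and HRNR, each panel with its own axis from 0. The groups are separate for LCE1F, FLG and TCHH and overlap for the other 5 genes.

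FLG and TCHH lie on the same strand, and their RefSeq promoter windows hold the same short elements. The windows are printed for FLG at chr1:152325190-152325489 and for TCHH at chr1:152115395-152115694, both on the minus strand of GRCh38.p14. Capitals mark TGANTCA, the core site of the AP-1 family (FOS and JUN proteins), and TATAAA, the TATA box.
FLG promoter: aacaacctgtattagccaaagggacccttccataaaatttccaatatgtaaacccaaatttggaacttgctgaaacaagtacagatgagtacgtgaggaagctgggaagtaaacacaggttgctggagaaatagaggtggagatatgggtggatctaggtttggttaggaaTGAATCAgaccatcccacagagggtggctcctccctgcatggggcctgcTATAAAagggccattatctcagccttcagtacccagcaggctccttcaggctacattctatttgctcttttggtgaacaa
TCHH promoter: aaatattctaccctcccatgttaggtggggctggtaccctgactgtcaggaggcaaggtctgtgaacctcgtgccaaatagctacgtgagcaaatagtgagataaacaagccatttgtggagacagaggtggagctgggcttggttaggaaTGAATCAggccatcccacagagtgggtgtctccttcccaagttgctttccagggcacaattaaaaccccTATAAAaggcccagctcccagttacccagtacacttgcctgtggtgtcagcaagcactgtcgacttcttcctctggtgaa

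The windows share a run of 19 bases that contains the AP-1 match, which begins 79 bases before the start site in FLG and 99 bases before it in TCHH. TATAAA begins 30 bases before the start site in both genes. The 2 windows were 54.7% identical as a whole. The LCE1F window holds neither motif. Searched on both strands, TGANTCA occurs in 18 of the 56 member windows that RefSeq gave, 32.1%, against 7.71% of 35116 windows of all genes, and TATAAA occurs in 29 of the 56, 51.8%, against 11.5%. Members with and without reads both hold them. The pair of motifs is not particular to FLG and TCHH. RPTN and CRNN of the same family, with 3 and 1 reads in all, hold both, and so does the silent IVL. TGANTCA is in 6 of 16 members with at least 10 reads and in 9 of 30 silent ones, and TATAAA is in 5 of those 16 and in 18 of those 30. A match of letters is a description and shows no binding.

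The S100 genes that start in the window were low. Their summed level was 5.65, 6.62 and 5.63 FPKM in PD and 6.39, 4.88 and 5.64 FPKM in DMSO, and the groups overlap. S100A11, a calcium-regulated growth and membrane-repair protein, had 1.72, 2.68 and 2.65 FPKM in PD and 2.30, 1.47 and 2.67 FPKM in DMSO (log2 fold change 0.10 ± 0.19 SE, adjusted p = 0.735 in limma). Its locus overlaps the antisense gene AL450992.1, which had 45, 52 and 42 reads in PD and 16, 39 and 27 reads in DMSO (adjusted p = 0.0369 with voom), and its part in the S100A11 values was not tested. S100A2, a p63 target of basal epithelium, had 1.29, 1.04 and 1.66 FPKM in PD and 1.12, 1.20 and 1.05 FPKM in DMSO (log2 fold change 0.13 ± 0.14, adjusted p = 0.535). S100A13, which takes part in the release of growth factors without a signal peptide, had 1.47, 1.15 and 0.692 FPKM in PD and 1.91, 1.64 and 1.23 FPKM in DMSO (log2 fold change -0.31 ± 0.18, adjusted p = 0.237). None of the 3 passed the test, and in each the groups overlap.

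S100A13 overlaps S100A1 on the opposite strand over 3435 bases. S100A1 had 7, 14 and 13 reads in PD and 30, 13 and 19 reads in DMSO. S100A14, a protein of epithelial cells, had 6, 9 and 1 reads in PD and 2, 1 and 1 reads in DMSO. S100A16 had 4, 3 and 4 reads in PD and 3, 3 and 2 reads in DMSO, and S100A4, which is linked to cell motility, had 4, 3 and 2 reads in PD and 1, 3 and 1 reads in DMSO. S100A3 had 1, 4 and 0 reads in PD and 2, 0 and 3 reads in DMSO. None of these 5 genes passed with voom, with adjusted p-values from 0.273 upward. S100A6 and S100A5 had 6 and 3 reads, all in PD.

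The SPRR genes and the envelope precursors were close to silent. SPRR proteins are proline-rich bridges between other envelope proteins. SPRR2D had 1, 4 and 5 reads in PD and 2, 0 and 3 reads in DMSO, and SPRR3 had 4 reads, all in PD. LOR, which encodes loricrin, the main envelope protein of skin, had 4 reads, all in DMSO replicate 3. CRCT1, a cysteine-rich gene beside the LCE genes, had 3 reads, all in PD replicate 3. The 13 members with 1 to 9 reads in all had 32 reads in PD and 16 in DMSO, at most 5 in a sample, with 8 of them higher and 5 lower in PD by sum, which is too few reads to order any one of them.

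**Figure D4:**
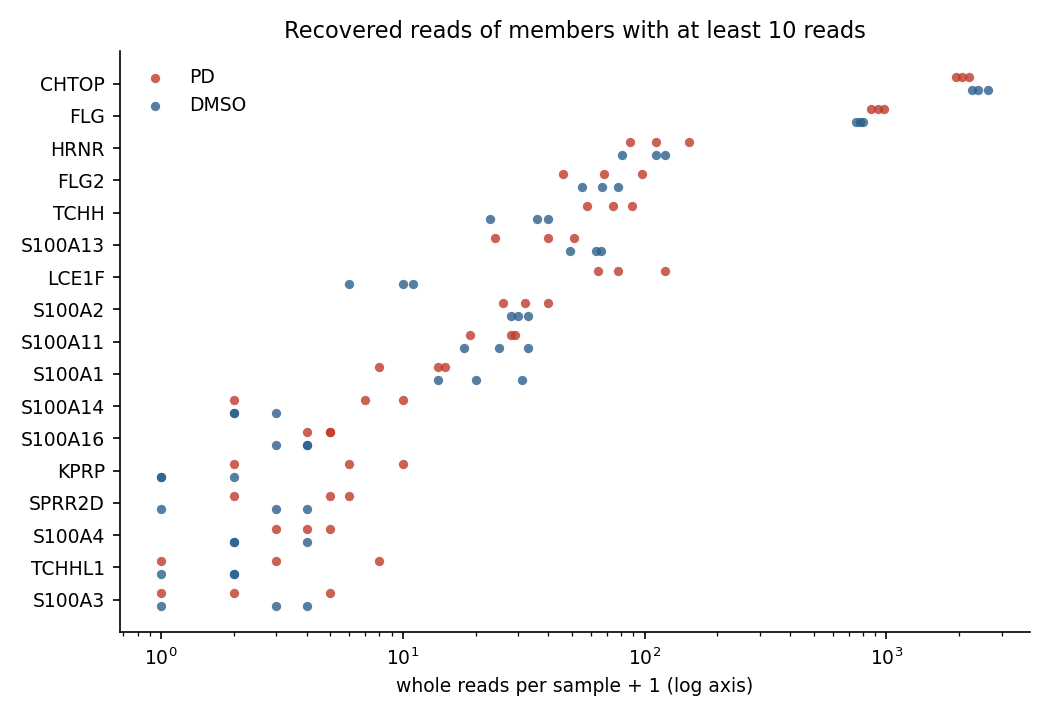
Whole reads per sample plus 1 (log axis) for the 17 members with at least 10 reads in all, sorted by total, PD red and DMSO blue. LCE1F, FLG and TCHH have all PD points right of all DMSO points, while HRNR, FLG2 and the S100 genes are mixed. CHTOP has its PD reads left of its DMSO reads, although its FPKM overlap.

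CHTOP had 23.8, 22.5 and 26.1 FPKM in PD and 26.2, 25.0 and 26.6 FPKM in DMSO, and the groups overlap (log2 fold change -0.10 ± 0.09, adjusted p = 0.432 in limma). Counted together, 1 of the 6 tested members was called higher in PD (adjusted p under 0.05 and at least 2-fold), against 2.84% of all 13579 genes tested, and none was called lower, against 0.979%. By adjusted p alone 2 of the 6 rose, LCE1F and FLG, against 14.3% of all genes, and none fell, against 12.7%. LCE1F, the member called, met the minimum for the test only with its PD samples, so the counts over the 6 are a description only. The median log2 fold change of the 6 was 0.11, against 0.00 over all genes tested. With voom on the 17 members with at least 10 reads, 3 rose (LCE1F, FLG and TCHH), against 12% of 22253 genes, and none fell, against 10.6%. Of these 17, 2 were called higher (LCE1F and TCHH), against 5.17%, and none lower, against 2.84%. In 4 of the 17 (LCE1F, FLG, TCHH and KPRP) every PD sample lay above every DMSO sample in FPKM, against 19.5% of such genes. In none did every PD sample lie below, against 18.1%. Among the 6 tested members the first count was 2, against 22.5% of all genes tested, and the second 0, against 21.9%. KPRP met the minimum of 10 reads through PD, with 15 reads there and 1 in DMSO. Its nearest samples, PD replicate 1 and DMSO replicate 3, had 1 read each, at 0.0261 and 0.0227 FPKM, so only library scaling separates them.

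**Figure D5:**
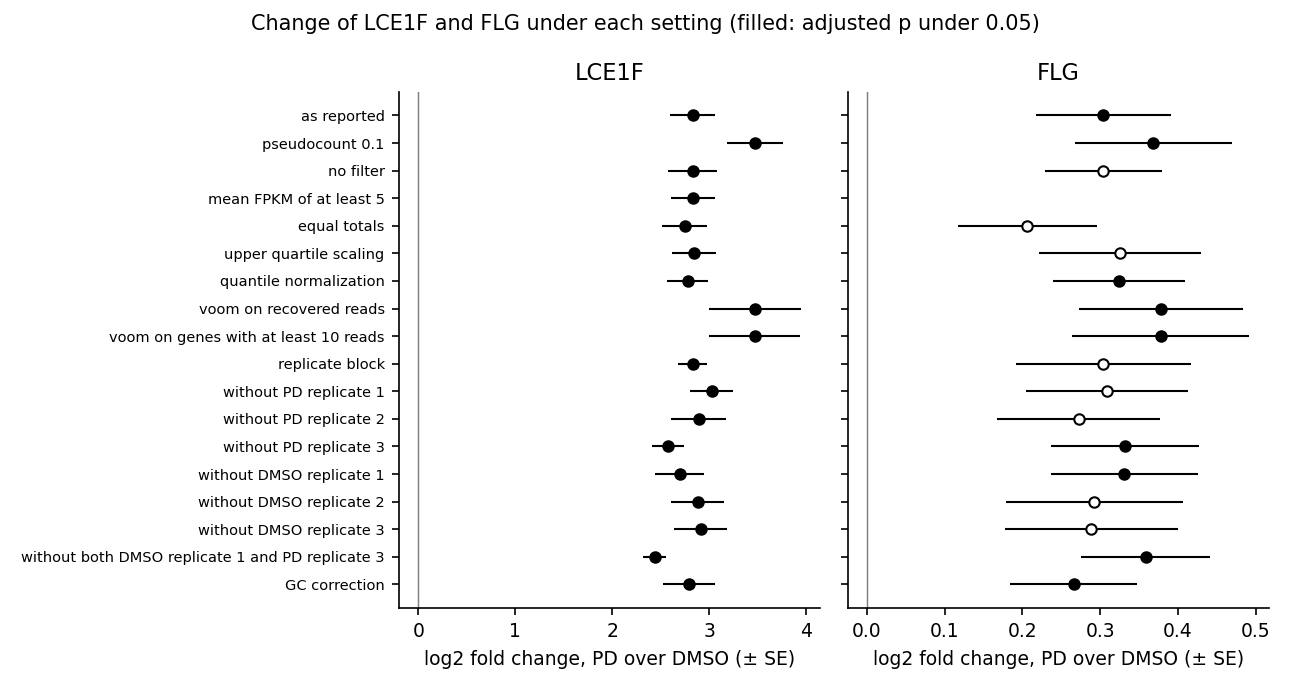
Log2 fold change of LCE1F and FLG, PD over DMSO, with its SE (bars) under each setting (rows), filled where the adjusted p was under 0.05. LCE1F stayed between 2.44 and 3.47 and passed in every setting shown, while FLG stayed between 0.21 and 0.38 and passed in some.

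The genes on either side of the window were measured in the same fit. Of 43 tested protein-coding genes within 1 Mb, 7 rose, 3 fell and none was called, where 14.3% of all genes tested rose, 12.7% fell, and 2.84% and 0.979% were called higher and lower. Median log2 fold changes were -0.01 for the 23 before the window and 0.11 for the 20 after it. Of the most abundant genes before it, PSMB4, a proteasome subunit, had 75.4 ± 5.70 FPKM in PD and 62.3 ± 9.40 FPKM in DMSO, PIP5K1A, a lipid kinase, 35.1 ± 1.67 FPKM in PD and 35.2 ± 1.66 FPKM in DMSO, and CDC42SE1 28.8 ± 1.80 FPKM in PD and 32.6 ± 2.62 FPKM in DMSO (SD, n = 3). After it, C1orf43 had 78.9 ± 3.87 FPKM in PD and 74.6 ± 3.26 FPKM in DMSO, TPM3, a tropomyosin, 75.4 ± 8.46 FPKM in PD and 68.3 ± 3.11 FPKM in DMSO, RPS27, a ribosomal protein, 65.7 ± 13.1 FPKM in PD and 72.6 ± 4.43 FPKM in DMSO, and ILF2, an RNA-binding protein, 46.9 ± 2.72 FPKM in PD and 52.0 ± 4.78 FPKM in DMSO. None of these 7 passed, with adjusted p-values of 0.148 to 0.966 in limma, and in each the groups overlap. The one S100 gene starting outside the window that entered the test was S100A10. It spans 151982915 to 151994390, so it starts just before the window and ends inside it. S100A10 encodes p11, the light chain that binds annexin A2 at the membrane. It rose to 495, 420 and 479 FPKM in PD, against 222, 277 and 318 FPKM in DMSO (log2 fold change 0.78 ± 0.15 SE, 1.72-fold, adjusted p = 0.00925 in limma). Its lowest PD value lay above its highest DMSO value. S100A10 missed the threshold with no filter (adjusted p = 0.0543 in limma) and with quantile normalization (0.0714). S100A11, the first member by start position, averaged 2.35 ± 0.544 FPKM in PD and 2.14 ± 0.615 FPKM in DMSO (SD, n = 3).

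The partners of these proteins outside the cluster were listed too. Of 32 genes of the cornified envelope elsewhere in the genome (transglutaminases, envelope scaffolds, desmosome, lipid and protease genes), 7 had 0 reads in every sample and 11 entered the test, of which 3 rose, against 14.3% of all genes tested, and 2 fell, against 12.7%, with a median log2 fold change of 0.18, against 0.00 over all genes. DSG1, a desmosomal cadherin of upper epidermis, rose to 77.5 ± 5.82 FPKM in PD, against 52.2 ± 5.19 FPKM in DMSO (log2 fold change 0.56, adjusted p = 0.00866 in limma). TGM2, a transglutaminase of many tissues, fell to 38.8 ± 5.08 FPKM in PD, against 53.8 ± 2.55 FPKM in DMSO (log2 fold change -0.47, adjusted p = 0.0194 in limma). DSG1 missed the threshold in 1 of 17 other settings and TGM2 in 4 of 17. DSP, the desmosomal plaque protein desmoplakin, had 36.2 ± 0.966 FPKM in PD and 36.7 ± 0.552 FPKM in DMSO (adjusted p = 0.896). CLDN1, a tight junction protein of the granular layer, had 26.1 ± 4.31 FPKM in PD and 34.5 ± 4.71 FPKM in DMSO (adjusted p = 0.0820), and passed in 7 of 17 other settings. Of the 11 tested genes of this list 1 was called higher, against 2.84% of all genes tested, and none lower, against 0.979%. The called gene was ALOXE3, a lipoxygenase of the skin lipid barrier, named here after its values were seen. It rose to 5.88 ± 0.249 FPKM in PD, against 1.81 ± 0.150 FPKM in DMSO (log2 fold change 1.29, adjusted p = 0.000236).

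Of 33 transcription factors of epidermal differentiation 19 entered the test, of which 8 rose, against 14.3% of all genes tested, 2 fell, against 12.7%, and 4 were called higher, against 2.84%. Their median log2 fold change was 0.36, against 0.00 over all genes. The 4 called were AP-1 subunits. This list was chosen with earlier results of these data known, so its counts are a description only. FOSB entered the test through its PD samples alone, since its DMSO samples had 0.340, 0.475 and 0.694 FPKM. FOSB rose to 5.96 ± 0.210 FPKM in PD, against 0.503 ± 0.178 FPKM in DMSO, and FOS to 13.3 ± 0.796 FPKM in PD, against 2.30 ± 0.0627 FPKM in DMSO. JUNB reached 41.0 ± 4.74 FPKM in PD and 14.1 ± 0.983 FPKM in DMSO, and JUN 112 ± 11.7 FPKM in PD and 49.7 ± 5.14 FPKM in DMSO (SD, n = 3 throughout). Their log2 fold changes in limma were 2.22, 2.12, 1.47 and 1.15, with adjusted p-values from 2.42e-05 to 0.000895, and TP63, whose values stand above, was among those that fell. Any link between these factors and the members of the cluster was not tested.

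Of 12 partners and receptors of S100 proteins 11 entered the test, of which 3 rose, against 14.3% of all genes tested, 1 fell, against 12.7%, and none was called, against 2.84% higher and 0.979% lower. Their median log2 fold change was -0.17, against 0.00 over all genes. AHNAK, a giant scaffold protein that binds the complex of p11 and annexin A2, rose to 232 ± 25.8 FPKM in PD, against 163 ± 8.13 FPKM in DMSO (log2 fold change 0.50, adjusted p = 0.0155 in limma). BSG, a receptor for S100A9, rose to 132 ± 8.19 FPKM in PD, against 103 ± 3.93 FPKM in DMSO (log2 fold change 0.36, adjusted p = 0.0231 in limma). AHNAK missed the threshold in 6 of 17 other settings and BSG in 8 of 17. ANXA1, which binds S100A11, had 414 ± 81.1 FPKM in PD and 469 ± 69.8 FPKM in DMSO (adjusted p = 0.438). ANXA2, which binds S100A10, had 188 ± 10.6 FPKM in PD and 153 ± 12.8 FPKM in DMSO (adjusted p = 0.0644), and passed in 3 of 17 other settings.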

How the data were processed

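One table of FPKM was deposited by the authors, with the gene length and 1 column per sample, and its columns were matched to samples by group prefix and number. Per the labels' protocols, libraries came from a stranded mRNA kit. Not given in the sources used here are the aligner, the counting program and its use of strand. GRCm38 and mm10 are the builds named by the submitters' processing notes, but all 58735 identifiers and their coordinates were those of GENCODE 29 on GRCh38. FPKM times length gave whole reads within 0.01 for the deposited values, and the FPKM denominators were 1.00, 0.997 and 0.947 times the gene total in PD replicates 1 to 3 and 1.03, 1.10 and 1.08 times in DMSO replicates 1 to 3. Where that scaling comes from was not found in the sources used here.

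PD was compared with DMSO on log2(FPKM + 1) with limma 3.58.1 in R 4.3.3 (trend, two-sided moderated test, no covariate), over the 13579 genes with at least 1 FPKM in at least 3 samples, with Benjamini-Hochberg adjustment over all of them. Called means an adjusted p under 0.05 with at least 2-fold, as in the labels, while rose and fell need the adjusted p only. Members below the filter are given as reads, with limma's voom on the 22253 genes with at least 10 reads as an alternative. The same-numbered samples did not deviate together, so numbers do not pair samples. Named were all tested members, those with at least 10 reads, and up to 4 genes per outside list (the called ones with the largest change or, where fewer than 2 were called, the highest by mean FPKM). The tested S100 gene that starts outside the window was named too. Members and lists were chosen with earlier results of these data known, and leaving samples out of the voom fit was chosen after seeing the data. Alternatives changed the pseudocount, the filter, the scaling, the use of voom, a correction for GC content, the replicate block and the samples kept. The fits were tested on simulated data. Promoters are RefSeq's on GRCh38.p14, with 56 of 64 members matched; LCE1B had none.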

Additional observations from a re-analysis of the deposited data

How the results depend on the processing

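The change of LCE1F stayed past the threshold in all 17 other settings, with log2 fold changes of 2.44 to 3.47 and adjusted p-values of 7.06e-05 to 0.00418 (limma and voom). The number of tested members that rose, 2 as reported, was 1 with no filter, at a mean of at least 5 FPKM, with scaling to equal totals, with upper quartile scaling and with the replicate block, and 1 to 2 when 1 sample was left out, because FLG missed the threshold (or, at a mean of at least 5 FPKM, was not tested). FLG had adjusted p-values of 0.0682 with no filter, 0.123 with equal totals, 0.0579 with upper quartile scaling and 0.132 with the replicate block. With that block, over numbers that do not pair the samples (correlations of -0.388, 0.168 and -0.163 between same-numbered deviations), LCE1F had an adjusted p of 0.00223, and DSG1 (0.0503), TGM2 (0.0662), VIM (0.0872) and BSG (0.0851) missed the threshold. Members called higher, 1 as reported, were 2 with voom on genes with at least 10 reads, where TCHH joined, and members with reads, 30 at a minimum of 1 read, were 17 at 10 reads. Scaling to equal totals shifted the median of all genes by -0.10 on the log2 scale, and there CHTOP was at -0.22. Some genes that did not pass as reported changed sign, and the cause was not tested. With samples left out, S100A11 ranged from -0.067 to 0.24, CDX2 from -0.16 to 0.038, DSP from -0.037 to 0.010 and PIP5K1A from -0.038 to 0.029. With upper quartile scaling DSP was at 0.0085 and PIP5K1A at 0.019, and C1orf43 was at -0.042 with equal totals and -0.036 with quantile normalization. Few reads limit the 58 members under the filter.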
